A study of Mus musculus with 16 samples.

Results

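The miRNAs described here are mmu-miR-15a, mmu-miR-15b, mmu-miR-16, mmu-miR-195 and mmu-miR-497, which were taken from the microarray of the study by their names. The choice was made with earlier results of these data known. These 5 miRNAs were represented by 10 of the 1857 miRNA probes, with 2 probes for each miRNA, among 650 miRNA names on the array. All 5 counted as expressed in sciatic nerve, as did 281 of the 650 names in all, and all 10 probes were tested among 681 probes. Total RNA of sciatic nerves was labeled with Cy3 and hybridized to Agilent miRNA arrays, 1 array per sample, with 4 arrays in each of 4 groups. Dicer mutants carried the genotype Dicer1 fl/fl Dhh-Cre pos and controls the genotype Dicer1 wt/fl Dhh-Cre pos, both in the strain Dicer1tm1Bdh/J, and each genotype was sampled on day 17 of embryonic life (E17) and on day 4 after birth (p4). Mutants and controls thus all carried the Cre transgene and at least 1 floxed Dicer allele, so that the controls were heterozygous for the deletion in Cre-expressing cells. The Cre recombinase was driven by the promoter of Dhh, which is active in the Schwann cell lineage, and whole nerves were analyzed, so that miRNAs of axons, fibroblasts, vessels and blood were measured together with those of Schwann cells. In such bulk samples, fewer cells of a type and less miRNA per cell cannot be told apart. The arrays did not measure Dicer mRNA, and the deletion was not examined here.

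Dicer cuts miRNA precursors into mature miRNAs, which pair with mRNAs mainly through the seed, the bases 2 to 8 of the mature miRNA. The miR-15 and miR-16 family is known for restraining the cell cycle, with cyclin D1, cyclin E1 and CDK6 among its targets, and for lowering the survival protein BCL2. Schwann cells divide in the embryonic nerve and leave the cell cycle when they begin to myelinate, which is the step that lies between E17 and p4.

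The mature sequences are shown because the shared seed, in capitals, is what makes these miRNAs 1 family, and because the remaining bases show which members an array probe could confuse. They were taken from RefSeq (GRCm38.p6) by name, where all 5 members were found under their current names.
miR-15a: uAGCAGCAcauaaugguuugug
miR-15b: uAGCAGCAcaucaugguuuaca
miR-16: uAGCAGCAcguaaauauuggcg
miR-195: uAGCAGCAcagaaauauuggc
miR-497: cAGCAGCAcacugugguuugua
All 5 hold the seed AGCAGCA, which 10 of 1679 mouse mature miRNAs in the RefSeq table carry at this position (0.596%). The members fall into 3 genomic clusters. miR-15a lies at chr14:61632075-61632096 on the minus strand, with 1 copy of miR-16 117 bases away at chr14:61631936-61631957, both within the long non-coding RNA gene Dleu2. miR-15b lies at chr3:69009775-69009796 on the plus strand, with the other copy of miR-16 121 bases away at chr3:69009918-69009939, both within the protein-coding gene Smc4. Both copies give the same mature miR-16, so that the array could not tell these loci apart. miR-497 lies at chr11:70234730-70234751 on the plus strand and miR-195 310 bases away at chr11:70235062-70235082. Genes with names that begin with Mir were left out of the overlap search, and none of the remaining genes of the RefSeq table overlaps them. Outside the seed the members of 1 cluster are not the most alike. miR-16 and miR-195 differ at 2 of 21 aligned bases, whereas miR-195 and miR-497 differ at 9 of 21, and miR-15a and miR-15b at 4 of 22. Cross-hybridization between such close sequences was not tested.

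Signals are given as the log2 of the median spot signal after quantile normalization across the 16 arrays, which forces the same distribution of signals on every array. Calls needed both an adjusted p no higher than 0.05 (limma, Benjamini-Hochberg over 681 probes) and a difference of 0.5 or more, up or down, on the log2 scale. The arrays of E17 all lay on 1 slide and those of p4 on another. Age and slide cannot be told apart, whereas each slide held both genotypes. Total signal after background subtraction, over all miRNAs, had a median of 50340 (controls) and 41760 (mutants) at E17, and of 130564 (controls) and 68678 (mutants) at p4. Replicate arrays of a group correlated at r = 0.972 or above over all 1857 miRNA probes, and no pair was identical. Among the cell type markers, the Schwann cell miRNAs miR-338-3p and miR-204 were detected and miR-219 was not.

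At p4, the family was lower in Dicer mutant nerves than in control nerves. The decrease was called for miR-15a and miR-16, on both probes of each. miR-15b, miR-195 and miR-497 were lower by less than the size limit. In all, 4 of the 10 probes were called, all lower, where 14.5% of all probes tested were called in either direction and 7.93% were called lower. Regardless of size, all 10 probes passed the limit on adjusted p (limma), as did 43.8% of all probes. The median difference of the 10 probes was -0.48 on the log2 scale, against 0.02 over all 681 probes.

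miR-15a, which with miR-16 is deleted in many human chronic lymphocytic leukemias, was measured at 9.76, 9.61, 9.34 and 9.87 on the control arrays of p4 and at 8.83, 9.02, 8.55 and 8.92 on the mutant arrays. All mutant arrays were below all control arrays. The difference was -0.81 ± 0.134 (SE, adjusted p = 0.000207, limma), a 1.76-fold decrease, and the other probe gave -0.92 (adjusted p = 4.4e-05, limma).

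miR-16, which is encoded next to miR-15a and again next to miR-15b, was measured at 10.49, 10.61, 10.15 and 10.58 in controls and at 9.73, 9.95, 9.31 and 10.001 in mutants. Again the groups did not overlap, although the lowest control and the highest mutant array lay close together. The decrease was 1.63-fold (-0.71 ± 0.141, adjusted p = 0.000922, limma), and -0.81 on the other probe (adjusted p = 3.6e-05, limma).

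miR-15b, the partner of miR-16 in the Smc4 gene, was measured at 10.60, 10.59, 10.15 and 10.69 in controls and at 10.02, 10.33, 9.75 and 10.20 in mutants. The third control array lay below 2 of the mutant arrays, so that the groups overlapped. The difference was -0.43 ± 0.133 (adjusted p = 0.0172, limma), which is under the size limit, and without the third control array it was -0.55 and was called (adjusted p = 0.00255, limma). It was also called without the second mutant array (-0.52, adjusted p = 0.0082, limma).

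miR-195, the closest relative of miR-16 by sequence, was measured at 7.87, 7.91, 7.75 and 7.80 in controls and at 7.35, 7.44, 7.32 and 7.29 in mutants. The groups were well apart, with a spread within each group of less than 0.2. The difference of -0.48 ± 0.0616 (adjusted p = 2.62e-05, limma) was just under the size limit, and it was called without the third control array (-0.51) or without the second mutant array (-0.51). It was also called with some other processing, at -0.57 in the table of normalized intensities that the authors deposited (adjusted p = 1.72e-06, limma). With the percentile of the detected probes as the scale it was at -0.61 (adjusted p = 0.000242, limma), and with background-subtracted signals at -0.72 (adjusted p = 0.00403, limma). Not every setting enlarged it, and over the 32 alternatives it ranged from -1.19 to -0.36. The other probe gave -0.35 (adjusted p = 3.18e-06, limma), under the size limit. The study itself lists miR-195 among the miRNAs lower in p4 mutants and higher with age in controls. It reports both changes by real-time PCR as well.

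miR-497, the neighbor of miR-195, was measured at 7.62, 7.59, 7.44 and 7.48 in controls and at 7.23, 7.35, 7.27 and 7.18 in mutants. The groups did not overlap. The difference of -0.28 ± 0.0643 (adjusted p = 0.00286, limma) was the smallest of the 5 brightest probes. In the deposited table it was -0.10 with an adjusted p of 0.703 (limma).

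Of the 10 probes, 9 had groups that did not overlap at p4, as had 39.1% of all probes tested. All 10 kept a negative sign under each of the 32 alternative settings tried. Some of these settings could not change the sign. The size limits, filters, tests, fit of only the compared groups and replicate block keep the same difference, as does leaving out an E17 array. The plot of the level of each member by array shows these values next to those of E17.

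**Figure D1:**
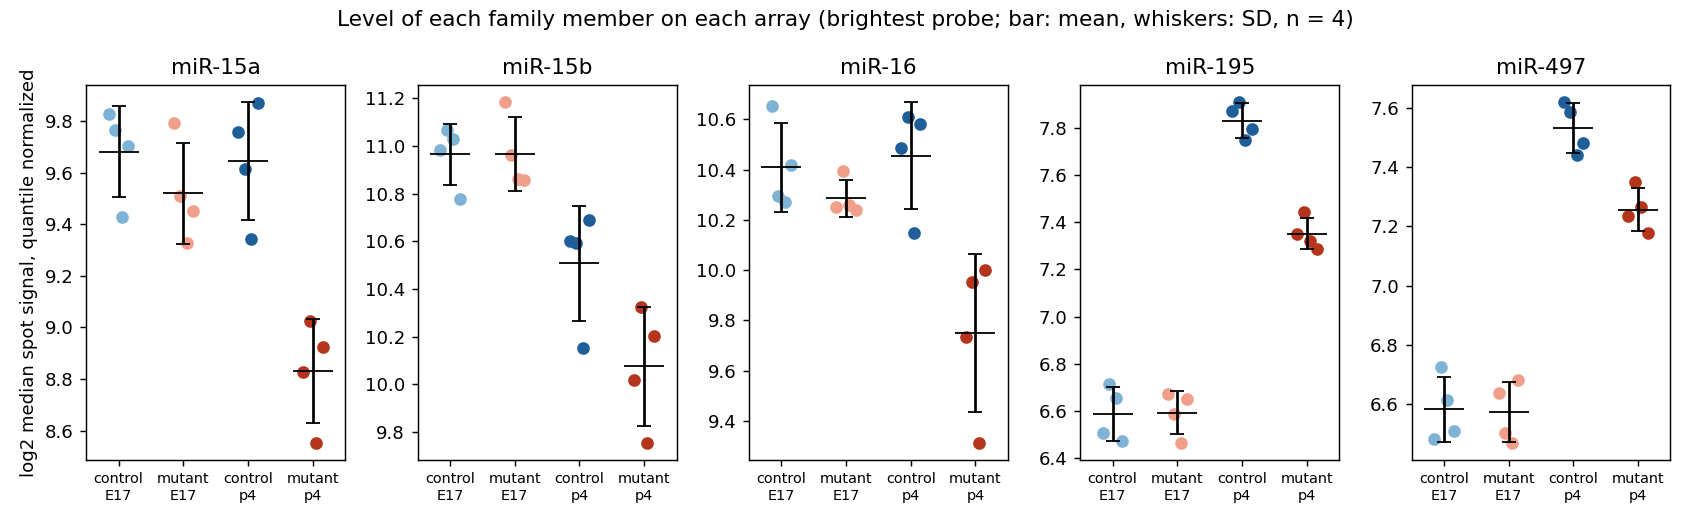
Level of each family member on each array, as the log2 of the quantile normalized median spot signal of its brightest probe (y axis, a separate scale for each miRNA) in controls and Dicer mutants at E17 and p4 (x axis). Points are arrays, bars are group means and whiskers are SD (n = 4); the p4 mutant arrays of miR-15a, miR-16, miR-195 and miR-497 all lie below the p4 control arrays, and miR-195 and miR-497 are higher at p4 than at E17 in both genotypes.

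At E17, before myelination, no family member was called between mutants and controls. Of the 10 probes, 0 were called by limma, where 2.79% of all probes tested were, and 0 had an unadjusted p of 0.05 or less. The test named in the methods of the study gave 0 as well. The differences ranged from -0.19 to 0.01 on the log2 scale. For miR-15a, control arrays were at 9.83, 9.76, 9.43 and 9.70 and mutant arrays at 9.79, 9.51, 9.33 and 9.45. The 95% interval of its difference was -0.45 to 0.13. For miR-16, control arrays were at 10.65, 10.29, 10.27 and 10.42 and mutant arrays at 10.25, 10.39, 10.26 and 10.24, with an interval of -0.43 to 0.18. For miR-15b, control arrays were at 10.98, 11.07, 11.03 and 10.78 and mutant arrays at 11.18, 10.96, 10.86 and 10.86, with an interval of -0.29 to 0.29. The genotypes overlapped in each of these miRNAs. The intervals were narrower for miR-195 (-0.13 to 0.14) and miR-497 (-0.15 to 0.13), whose signals at E17 lay near background.

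Whether the mutant effect differed between the ages was tested as the difference between the effect at p4 and that at E17. It was called for 3 of the 10 probes, all lower at p4, where 6.61% of all probes were called and 4.99% were called lower. Both probes of miR-15a were called, at -0.65 ± 0.19 (adjusted p = 0.0336, limma) and -0.74 (adjusted p = 0.0118, limma). For miR-16 the dimmer probe was called at -0.71 (adjusted p = 0.00619, limma), and the brightest was not (-0.58, adjusted p = 0.0664, limma). miR-195 was at -0.49 with an adjusted p of 0.00142 (limma) and missed only the size limit. miR-497 (-0.27, adjusted p = 0.0664, limma) and miR-15b (-0.43, adjusted p = 0.148, limma) were not called. The call of the brightest miR-15a probe was lost without E17 control replicate 3 (-0.57) or 4 (-0.66), E17 mutant replicate 1 (-0.56) or 2 (-0.66), p4 control replicate 1 (-0.62) or 4 (-0.58), or p4 mutant replicate 1 (-0.65). With background-subtracted signals none of the 10 probes was called by limma for this difference (0 called, 5 with an unadjusted p of 0.05 or less), and the brightest miR-15a probe was at -0.79 with an adjusted p of 0.0986 (limma). On that scale miR-195 was at -0.70, beyond the size limit, and missed the limit on adjusted p (0.0836, limma). Other settings gained calls. In the deposited table the brightest probe of miR-16 was called at -0.64 (adjusted p = 0.000552, limma) and miR-195 at -0.57 (adjusted p = 0.000212, limma). miR-195 was also called without E17 control replicate 2 (-0.53) or 3 (-0.51), E17 mutant replicate 3 (-0.53), p4 control replicate 3 (-0.52) or 4 (-0.50), or p4 mutant replicate 2 (-0.52).

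From E17 to p4 in control nerves, miR-195 and miR-497 rose while the other members were not called. Both probes of miR-195 and of miR-497 were called higher, which made 4 of 10 family probes, where 12.8% of all probes were called and 5.43% were called higher. Their brightest probes ranked 3rd and 5th of the 281 expressed miRNAs by the size of the increase. The sign of this increase held in each of the 31 alternative settings. Here too the size limits, filters, tests and fit of only the compared groups keep the same difference, as does leaving out a mutant array.

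miR-195 was measured at 6.50, 6.71, 6.65 and 6.47 on the control arrays of E17, more than 1 log2 unit below every control array of p4. It rose by 1.25 ± 0.0616 (adjusted p = 3.92e-09, limma), a 2.38-fold increase on this scale. miR-497 was measured at 6.48, 6.72, 6.61 and 6.51 at E17, again below every control array of p4, and rose by 0.95 ± 0.0643 (adjusted p = 5.67e-08, limma), a 1.93-fold increase. These fold changes are compressed, since the median spot signal includes the background of the array. With background-subtracted spot signals, the increase was 2.17 ± 0.169 for miR-195 and 1.80 ± 0.173 for miR-497 on the log2 scale. The dimmer probes of both miRNAs were never well above background at E17, so that only a bound could be given there, at least 1.34-fold for miR-195 and at least 1.37-fold for miR-497 (measured differences 0.69 with adjusted p = 4.2e-09 and 0.61 with adjusted p = 2.5e-08, limma).

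In the same control nerves miR-15a differed by -0.04 (95% interval -0.32 to 0.25) and miR-16 by 0.05 (-0.26 to 0.35) between p4 and E17, while the other probe of miR-16 gave 0.33 (adjusted p = 0.0232, limma). The arrays of the 2 ages overlapped for both miRNAs on their brightest probes. miR-15b was at -0.46 ± 0.133 (adjusted p = 0.0137, limma), under the size limit, with every p4 control array below every E17 control array. Of the 10 probes, 7 had no overlap between the control arrays of both ages, as had 37.6% of all probes. These directions depended on the scaling of the arrays. Without normalization between arrays all 10 family probes were called higher at p4 in controls, where 43.9% of all probes were called and 42.4% were called higher, with miR-15a at 1.55, miR-15b at 1.20 and miR-16 at 1.76. The median of all probes then moved by 0.42 on the log2 scale, against -0.003 after quantile normalization.

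From E17 to p4 in mutant nerves, the clusters moved in opposite directions after quantile normalization. Here 7 of 10 probes were called, where 7.05% of all probes were, with 2 higher (background 1.76%) and 5 lower (background 5.29%). miR-195 rose by 0.76 ± 0.0616 (adjusted p = 2.6e-06, limma) from 6.67, 6.58, 6.46 and 6.65 on the E17 mutant arrays. miR-497 rose by 0.68 ± 0.0643 (adjusted p = 8.52e-06, limma) from 6.64, 6.50, 6.47 and 6.68. Every p4 mutant array was above every E17 mutant array for both miRNAs. The dimmer probes of both were not well above background on any E17 mutant array, so that only a bound could be given, at least 1.06-fold higher at p4 for miR-497. For miR-195 the bound did not reach 1, so that no increase is given for its dimmer probe. The measured differences, 0.36 for miR-195 and 0.38 for miR-497, were under the size limit.

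miR-15b fell by 0.89 on the log2 scale (SE 0.133, adjusted p = 0.00019, limma), miR-15a fell by 0.69 (SE 0.134, adjusted p = 0.00173, limma) and miR-16 fell by 0.54 (SE 0.141, adjusted p = 0.0122, limma). For each of the 3 miRNAs, all p4 mutant arrays were below all E17 mutant arrays, and all 10 family probes were without overlap between the ages (25.7% of all probes). The call of miR-16 was lost without the second E17 mutant array (-0.50) or the third p4 mutant array (-0.39), and its dimmer probe was not called (-0.37, adjusted p = 0.0206, limma). Without normalization these decreases were not seen, with miR-15a at -0.02, miR-15b at -0.01 and miR-16 reversed to 0.28, none of them called, whereas miR-195 (0.84) and miR-497 (0.77) were still called higher (2 of 10 probes, background 15.6% called and 13.4% called higher). The age comparisons share no arrays with each other, but each shares arrays with the mutant comparisons at E17 and p4. The plot of the differences of the 10 probes shows the 4 comparisons together.

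**Figure D2:**
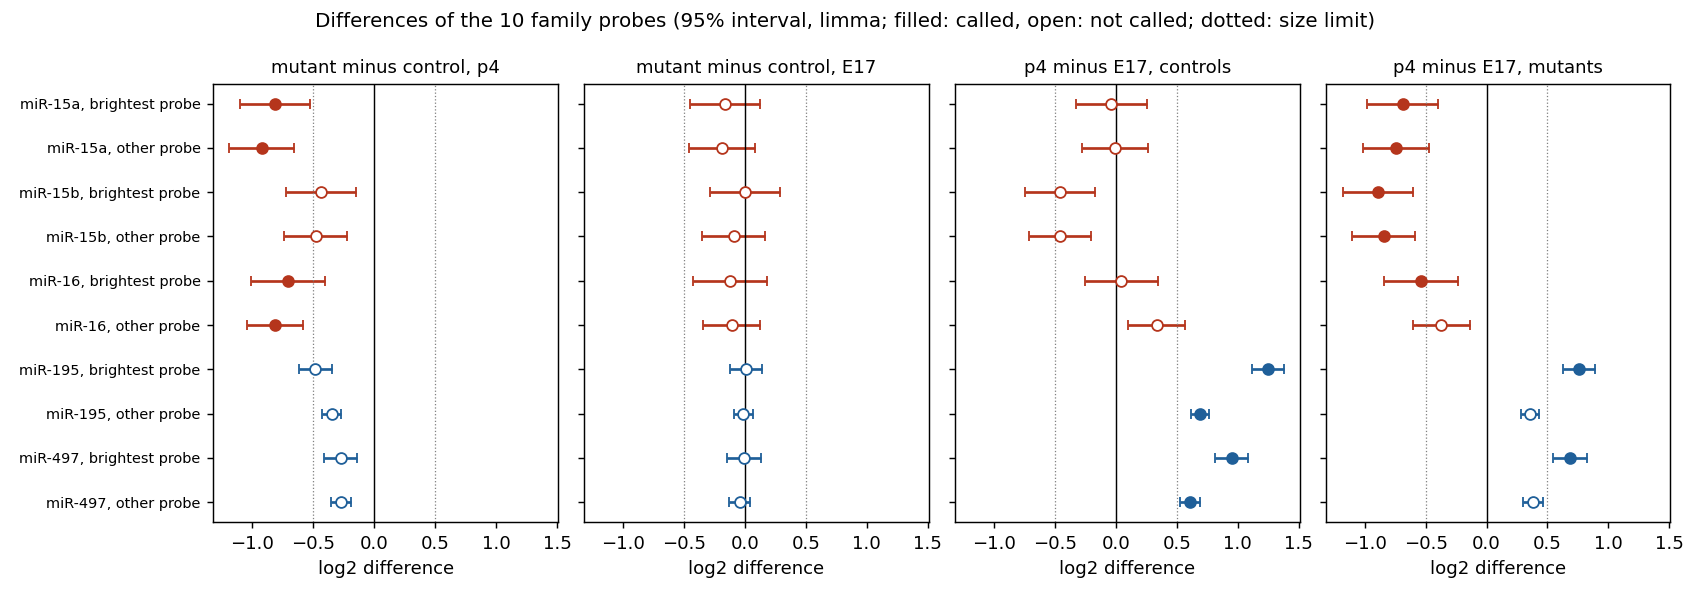
Log2 difference (x axis) of each of the 10 family probes (y axis) between mutants and controls at p4 and E17, and between p4 and E17 in controls and mutants, after quantile normalization. Points are fitted differences with 95% intervals (limma, n = 4 per group), filled where called, red for miR-15a, miR-15b and miR-16 and blue for miR-195 and miR-497; dotted lines mark the size limit of 0.5. At p4 all 10 points lie left of 0, and with age the blue points lie right of 0 in both genotypes.

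The clusters were then compared within each array, by the mean log2 signal of miR-195 and miR-497 minus that of miR-15a, miR-15b and miR-16, with the mean of the E17 controls set to 0. This balance removes a shift that is equal for all 5 miRNAs on this log2 scale. Since the median spot signal includes background, which compresses dim signals more, an equal fold change in all 5 could still move the balance. It is a score over chosen members, so it is described without a test. The balance was -0.23, 0.11, 0.16 and -0.04 in E17 controls and 0.01, 0.02, 0.09 and 0.25 in E17 mutants. In p4 controls it was 1.23, 1.25, 1.48 and 1.03, and in p4 mutants 1.54, 1.40, 1.86 and 1.29. With age it thus rose by 1.25 in controls and by 1.43 in mutants, with no overlap between the ages and a pooled SD within groups of 0.186. Between genotypes it differed by 0.27 at p4 and by 0.09 at E17, with overlapping arrays at both ages. Without normalization it differed by 0.63 between genotypes at p4, where the arrays did not overlap (-3.19 to -2.81 in controls and -2.53 to -2.13 in mutants, as plain differences of the log2 means), and by 0.45 at E17, where they did. The increase with age was 2.14 in controls and 2.29 in mutants with background-subtracted signals, and 0.54 in controls and 0.72 in mutants without normalization. At p4 the mutant effect on single probes had a median of -0.76 over the 6 probes of miR-15a, miR-15b and miR-16 and of -0.31 over the 4 probes of miR-195 and miR-497. With background-subtracted signals the mutant effect at p4 was -0.96 for miR-15a, -0.54 for miR-15b, -0.82 for miR-16, -0.72 for miR-195 and -0.46 for miR-497.

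**Figure D3:**
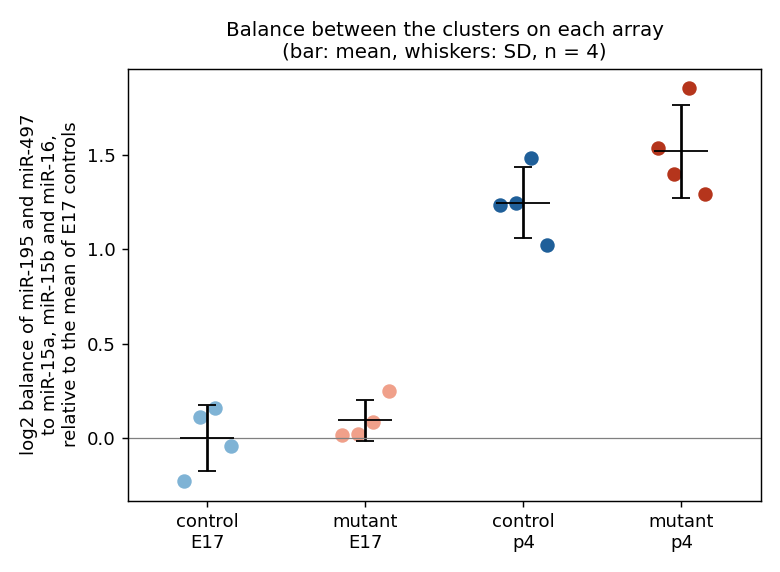
Balance of miR-195 and miR-497 to miR-15a, miR-15b and miR-16 on each array (y axis, difference of mean log2 signals of the brightest probes, with the mean of the E17 controls at 0) in the 4 groups (x axis). Points are arrays, bars are means and whiskers are SD (n = 4); every p4 array is above 1 and every E17 array is at or below 0.25, and controls and mutants of 1 age overlap after quantile normalization.

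How far the mutant effect at p4 went depended on whether the arrays were scaled to each other. The signal that the scanner software summed for each miRNA after background subtraction, with no normalization between arrays, showed all 5 members at their highest in p4 controls. miR-16 was at 2220, 2660, 2300 and 2220 in p4 controls and at 547, 887, 496 and 797 in p4 mutants, while E17 controls were at 777, 657, 463 and 882 and E17 mutants at 500, 673, 528 and 501. The p4 mutant arrays of miR-16 thus overlapped with those of both E17 groups. miR-195 was at 235, 291, 257 and 197 in p4 controls and at 76.8, 98.3, 74.2 and 76.5 in p4 mutants, while no E17 array of either genotype exceeded 26.8. miR-195 was therefore above its E17 signal in p4 mutants even on this scale. At E17, the medians of miR-15a were 680 (controls) and 463 (mutants), and at p4 they were 1900 and 435. miR-15b had medians of 1300 and 1050 at E17 and of 2710 and 936 at p4, again with controls first. miR-497 had medians of 25.9 and 21.8 at E17 and of 192 and 75.2 at p4.

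Without normalization, all 10 probes were called lower in p4 mutants than in p4 controls, by 0.61 to 1.89 on the log2 scale, where 23.1% of all probes were called and 22.9% were called lower. The median of all probes moved by -0.09 in this comparison without normalization. All 10 probes were also called in the difference between the mutant effects at p4 and E17 (background 21.4%), whereas 0 were called at E17 by limma (background 1.62%). The arrays of p4 controls had a higher total signal than those of p4 mutants without overlap (122860 to 154076 against 56841 to 83630), and the part of this difference in the result was not tested. The plot of 3 scalings shows the brightest probe of each member side by side.

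**Figure D4:**
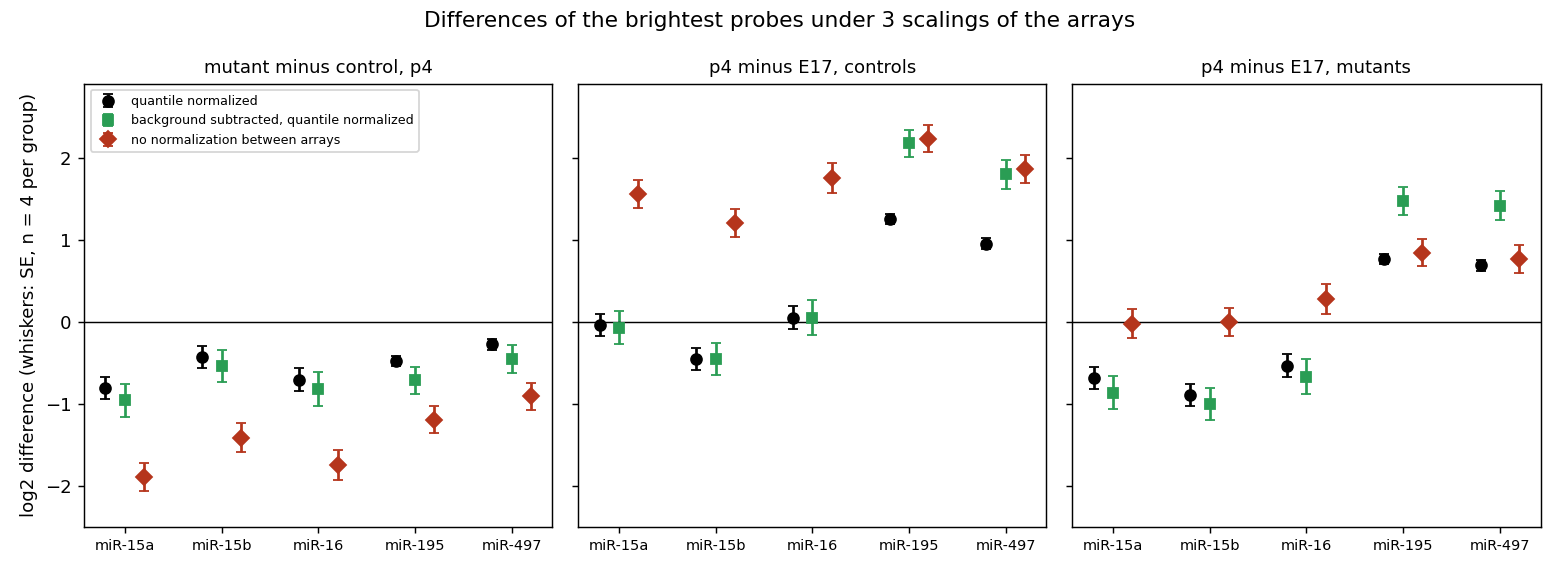
Log2 difference (y axis) of the brightest probe of each member (x axis) under 3 scalings of the arrays, between mutants and controls at p4 and between p4 and E17 in controls and in mutants. Points are fitted differences and whiskers are SE (limma, n = 4 per group); all members are below 0 in p4 mutants under all 3 scalings, whereas miR-15a, miR-15b and miR-16 in the age comparison of controls lie between -0.46 and 0.05 after quantile normalization and between 1.20 and 1.76 without it.

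Over the 16 arrays, miR-195 and miR-497 went together, with r = 0.99 and, after the group means were subtracted, r = 0.92. miR-15a and miR-16 correlated at r = 0.92 (0.71 within groups), miR-15a and miR-15b at 0.82 (0.79 within groups), and miR-15b and miR-16 at 0.74 (0.70 within groups). Between the clusters r was from -0.67 to -0.10 over all arrays and from -0.12 to 0.55 within groups. Arrays of an age share a slide, and all miRNAs of an array share its normalization, so these values describe the arrays only. Among the other expressed miRNAs, the patterns most like that of miR-15a were those of miR-20a (r = 0.96), miR-18a (0.93) and miR-106b (0.93), which belong to the families of miR-17 and miR-18 and are known for promoting cell division. miR-20a fell by 1.14 and miR-106b fell by 0.82 in p4 mutants (adjusted p = 5.94e-06 and 8.03e-05, limma), and miR-18a was at -0.49, under the size limit. For miR-15b they were miR-92a (0.96), miR-455 (0.94) and miR-25 (0.91). For miR-16 they were miR-338-3p (0.87), miR-20a (0.86) and miR-204 (0.86). For both miR-195 and miR-497 they were miR-29c (0.97 and 0.96), miR-28 (0.95 and 0.96) and miR-100 (0.93 and 0.90). Of these, miR-100 rose by 0.87 with age in controls (adjusted p = 5.03e-06, limma), and miR-29c (0.50) and miR-28 (0.33) were under the size limit.

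Other miRNAs that carry the bases AGCAGC near the 5′ end, of the wider group of miR-15 and miR-107, are shown for comparison of the seed.
miR-322: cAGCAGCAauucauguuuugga
miR-503: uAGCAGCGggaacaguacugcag
miR-103: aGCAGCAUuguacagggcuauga
miR-107: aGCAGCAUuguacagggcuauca
miR-322 has the seed of the 5 members, miR-503 differs from it in the last base of the seed, and miR-103 and miR-107 have it shifted by 1 base. All 4 were expressed, and 0 of their 8 probes were called in any of the 5 comparisons by limma, although 15 of the 40 single tests had an unadjusted p of 0.05 or less. In p4 mutants miR-103, which lies in genes for pantothenate kinases as does miR-107, was at -0.37 (adjusted p = 0.00326, limma) and miR-107 at -0.48 (adjusted p = 5.57e-05, limma). In E17 mutants they were at -0.48 (adjusted p = 0.0045, limma) and -0.25 (adjusted p = 0.0293, limma), where the brightest probes of the 5 members were between -0.16 and 0.01. miR-322, which is clustered with miR-503 on the X chromosome, was at 0.40 (adjusted p = 0.0383, limma) in p4 mutants and miR-503 at 0.27 (adjusted p = 0.123, limma). The passenger strands miR-15a*, miR-15b* and miR-16*, with 12 probes in all, were not above background on any array and were not tested.

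The family was set beside 2 lists of miRNAs known to act on the cell cycle, with 1 probe per miRNA, the brightest. Of 21 miRNAs known to restrain the cell cycle 16 were tested, and 3 of them fell in p4 mutants (miR-34a at -2.26, miR-24 at -0.69 and let-7f at -0.55), with none called higher and a median of -0.21. Of 14 miRNAs known to promote the cell cycle 11 were tested, and 5 of them fell in p4 mutants, among them miR-20b (-1.96) and miR-92a (-0.98), with none called higher and a median of -0.49. Over all 281 miRNAs 30 fell (10.7%) and 29 rose (10.3%), with a median of 0.06. At E17, 1 of the restraining list (let-7d) and 1 of the promoting list (miR-20b) were called lower in mutants, against 5 called lower (1.78%) and 6 called higher (2.14%) of 281, or 3.91% in all. From E17 to p4 in controls, 1 of 16 restraining miRNAs rose (miR-34a) and 1 fell (let-7e), and 0 of 11 promoting miRNAs were called by limma (2 at an unadjusted p of 0.05 or less), against 18.1% of all miRNAs called, with 6.41% higher and 11.7% lower. In mutants, 4 of 16 restraining miRNAs rose with age (let-7b, let-7d, let-7i and miR-29a) and 6 of 11 promoting miRNAs fell, against 10.7% of all miRNAs called, with 3.2% higher and 7.47% lower.

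Markers of other cell types moved with the genotypes. The 3 erythroid miRNAs miR-451, miR-144 and miR-486 were all expressed, and their summed level on the log2 scale was 8.34 to 9.88 in p4 controls and 9.22 to 10.54 in p4 mutants, 10.53 to 12.12 in E17 controls and 12.26 to 13.02 in E17 mutants. These ranges overlapped at p4 and not at E17. miR-451 was called higher in p4 mutants (1.35, adjusted p = 0.0306, limma), and within groups it correlated with miR-15a, miR-15b and miR-16 at r between -0.11 and 0.21 (16 arrays). With age miR-451 fell by 2.81 in controls (adjusted p = 0.000308, limma) and fell by 2.93 in mutants (adjusted p = 0.000344, limma), opposite to the increase of miR-195 and miR-497. Its correlation with both was -0.88 over the 16 arrays, which differ in age and slide, and -0.23 for miR-195 and -0.26 for miR-497 within groups. miR-486 and the neuronal miR-9 were also called lower with age in both genotypes, whereas the Schwann cell markers miR-338-3p and miR-204 were called higher in controls (0.87 and 0.86) and lower in mutants (-1.41 and -0.96). The neuron markers miR-128, miR-124 and miR-132 were not called with age. They were at 0.14, -0.04 and -0.03 in controls and at 0.30, 0.24 and 0.11 in mutants. In controls, miR-206 of skeletal muscle (-1.38) and miR-214 (-1.15) and miR-199a-5p (-0.53) of fibroblasts were called lower with age as well. Their list mate miR-199a-3p was not called (-0.63, adjusted p = 0.052, limma). miR-143 of the same list went the other way, under the size limit, at 0.44 in controls (adjusted p = 0.0098, limma). In mutants miR-143 was at 0.46 (adjusted p = 0.0112, limma). Of the 6 fibroblast and smooth muscle markers 5 were on the array and 4 were expressed, with miR-145 not detected, and their summed level was 11.16 to 11.62 in p4 controls and 11.68 to 12.64 in p4 mutants. Of the 5 leukocyte markers 3 were expressed, with miR-142-5p and miR-150 not detected, and their summed level was 8.83 to 9.003 in p4 controls and 9.22 to 9.60 in p4 mutants. The 2 expressed Schwann cell markers were at 11.37 to 12.21 in p4 controls and at 8.94 to 9.59 in p4 mutants. Both endothelial markers were expressed (9.32 to 10.06 in p4 controls and 9.81 to 10.41 in p4 mutants), as were the 4 skeletal muscle markers (8.90 to 9.29 and 8.93 to 10.73) and the 4 neuron markers (8.50 to 8.62 and 8.45 to 8.63), each with overlapping groups at p4. Single markers of these lists were called all the same, with the endothelial miR-126-3p higher (0.60, adjusted p = 0.0123, limma) and the neuronal miR-9 lower (-0.68, adjusted p = 0.000603, limma) in p4 mutants. The other neuron markers went the other way in p4 mutants, under the size limit, with miR-124 at 0.31, miR-132 at 0.28 and miR-128 at 0.10. miR-199a-5p (1.14), miR-199a-3p (0.78) and miR-214 (1.09) of the fibroblast markers and miR-223 (0.82) of the leukocyte markers were called higher. Lower were the Schwann cell markers miR-338-3p (-2.85) and miR-204 (-2.04). At E17, summed leukocyte, fibroblast and smooth muscle, and endothelial levels were higher in mutants without overlap. These were 9.16 to 9.35, 12.57 to 12.92 and 9.84 to 10.16, against 8.91 to 8.98, 11.61 to 12.43 and 9.20 to 9.62 in controls. Schwann cell markers were lower without overlap, and skeletal muscle and neuron markers overlapped. miR-486 (0.52), miR-142-3p (0.54) and miR-199a-5p (0.69) were called higher in E17 mutants, with no listed marker called lower. The part of these cell types in the levels of the family was not tested.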

How the data were processed

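miRNAs were measured in 16 sciatic nerve samples. The authors deposited scanner files from Agilent Feature Extraction 10.5.1.1 (per the labels), which hold each spot's intensity with and without background subtraction, flags for detection and outliers, and values not normalized between arrays. They also deposited a table of normalized intensities, used here as an alternative. Median spot signals were log2 transformed, quantile normalized over the 13000 spots that are not controls, and averaged per probe without outlier spots (101 of 1600 family spots were marked). A miRNA counted as expressed if the scanner software detected it in a group on a share of its arrays of 0.5 or more. A fit of 4 group means used limma 3.58.1 (R 4.3.3) and was tested on simulated data. The number of arrays limits the precision, and the p-values set each difference of group means against the spread between these samples within groups. The methods of the study describe littermate pairs of mutants and controls, and neither they nor the labels state which arrays form a pair.

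Named were all members, their passenger strands, the other miRNAs of the miR-15 and miR-107 group on the array, the 3 miRNAs most correlated with each member, and lists of cell cycle and cell type miRNAs. The members and lists were chosen with earlier results of these data known. Alternatives, given in the closing section, changed the background correction, normalization, filter, size limit, test, source of the values and arrays included. Since it is not stated which arrays form a pair, replicate numbers were not taken as pairs. The fit with them as a block is given in the closing section.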

Additional observations from a re-analysis of the deposited data

Results flagged for a closer look

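The mutant effect differed between the ages, by a test of the difference itself (limma, adjusted p of at most 0.05 and a size of at least 0.5), for both probes of miR-15a (-0.74 and -0.65) and for the dimmer probe of miR-16 (-0.71), with the mutant level lower relative to controls at p4 than at E17. With background-subtracted signals none of these calls was made (0 of 10 probes by limma, 5 with an unadjusted p of 0.05 or less), and the brightest probe of miR-15a was then at -0.79 with an adjusted p of 0.0986 (limma).

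Of the 40 groups of 4 arrays examined, 10 probes in 4 groups, 3 held an array far from the other 3 by Dixon's ratio, whose limit chance passes in about 1 in 20 groups. The third E17 control array was low for the dimmer probe of miR-15a (9.15). The third p4 control array was low for the dimmer probe of miR-15b (9.12), and it is also the lowest p4 control array for the brightest probes of miR-15a, miR-15b, miR-16, miR-195 and miR-497. The second E17 mutant array was high for the brightest probe of miR-16 (10.39).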

How the results depend on the processing

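Family probes called after quantile normalization numbered 4 (mutants at p4), 0 (mutants at E17), 4 (age in controls), 7 (age in mutants) and 3 (difference between the mutant effects). Of all 681 probes, 14.5%, 2.79%, 12.8%, 7.05% and 6.61% were called, in the same order. Without normalization these shares were 23.1%, 1.62%, 43.9%, 15.6% and 21.4%, and with no size limit 43.8% at p4. For the other settings no share of all probes is given, so their counts are not results about the family. At p4, 8 family probes were called with background-subtracted signals, 10 without normalization, 10 with the percentile of all probes, 10 with no size limit and 0 with a size limit of 1. With age in controls these were 2 with normexp, 10 without normalization, 8 with the percentile of all probes, 7 with no size limit and 1 with a limit of 1. With age in mutants they were 2 without normalization, 4 with the percentile of all probes and 0 with a limit of 1. For the difference between the mutant effects they were 0 with background-subtracted signals, 10 without normalization, 6 with the percentile of detected probes, 5 with that of all probes, 6 with no size limit, 0 with a limit of 1 and 5 in the deposited table. Leaving out 1 array gave 4 to 7 probes at p4 (7 without the third control or the second mutant array), 0 at E17, 4 to 6 with age in controls (6 without the fourth E17 control array), 6 to 7 with age in mutants and 2 to 6 for the difference between the effects (6 without the third p4 control array). E17 counts were 0 in every setting run. The balance between the clusters with age, 1.25 in controls and 1.43 in mutants, became 2.14 and 2.29 with background-subtracted signals, 0.94 and 1.21 with normexp, 0.54 and 0.72 without normalization, 1.62 and 1.79 with both percentiles, and 0.97 and 1.22 with the mean of each miRNA's probes. Without normalization it was 0.63 at p4 and 0.45 at E17 between genotypes. Leaving out 1 array gave 0.16 to 0.35 at p4, 0.02 to 0.15 at E17, 1.17 to 1.32 with age in controls, 1.32 to 1.503 with age in mutants and 0.07 to 0.26 for the difference between the genotype effects. Reversed were, with age in controls, miR-15b (1.11 and 1.20) and miR-15a (1.49 and 1.55) without normalization and miR-15a (0.83 and 0.88) with the percentile of all probes, and, with age in mutants, miR-16 (0.28) without normalization. Median shifts of all probes over 0.1 were, without normalization, 0.25 at E17, 0.42 with age in controls and -0.37 for the difference between the effects, with background subtraction 0.13 at p4, with the percentile of detected probes 0.46 at p4, -0.22 with age in controls and 0.30 for the difference, and with the percentile of all probes 0.13 with age in mutants. Of 1550 single probe values under alternatives, 1409 kept their side of the limits, 47 lost and 87 gained a call, and 7 reversed. Among the 1409, 43 changed sign with neither value called. With the replicate block within each age, 4 probes were called at p4, 0 at E17 and 4 for the difference between the effects, with miR-16 added (-0.58, adjusted p = 0.0109, limma). At p4 the block SE was 0.0657 (miR-15a), 0.0702 (miR-15b) and 0.079 (miR-16), instead of 0.134, 0.133 and 0.141. For miR-195 it was 0.065 and for miR-497 0.0717, instead of 0.0616 and 0.0643. The difference between the effects for miR-15b had an adjusted p of 0.023 (limma) instead of 0.148, still under the size limit. Samples with the same number deviated together at r = -0.52 to 0.09 at E17 and -0.28 to 0.46 at p4, and not every sample went best with its own number. The age comparisons were not run with the block, which lies within an age. The cause of these changes was not tested. normexp used median signals, chosen after seeing the data, since the mean signals planned are not in the files used here. At E17 miR-195 and miR-497 lie near background, which limits how small a difference could be seen.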
